A study of Larimichthys crocea with 2 samples.

Results

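The IGF-binding proteins are secreted proteins that hold insulin-like growth factors (IGFs) outside the cell, carry them through blood and tissue, and decide how much of the hormone reaches its receptor. In skeletal muscle the IGFs drive growth, and the binding proteins either withhold the hormone or concentrate it near the fibre. Bony fishes keep extra copies of several of these genes. Here the family was followed in muscle of a bony fish, the large yellow croaker, as the genes whose annotated protein name begins with the family name and whose mean over both libraries reached 1 RPKM, a read density scaled to gene length and library size. Of 22321 genes, 15 carried the name and 8 passed that level. The members were chosen by this mean level, which for low genes is tied to the ratio: IGFBP6 gene13358, at 0.531 RPKM in the fasted library and 1.99 RPKM in the control library, passed only through the library where it is high. RNA sequencing was done on 1 library of muscle from fish fasted for 21 days and on 1 library of muscle from fish with no treatment. The labels name neither the muscle taken nor the age and number of fish behind each library.

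Each group has a single library, so every difference below compares those libraries and none was checked against replicates, and intervals cover counting error only. Reads assigned to genes numbered 26593839 in the fasted library and 27519918 in the control library. Markers of the labelled tissue were abundant in both libraries. Skeletal alpha-actin (gene5086) stood at 55199 RPKM in the fasted library and 115733 RPKM in the control library. A fast myosin heavy chain (gene23811) stood at 34088 and 13876 RPKM. The median gene was 1.40-fold higher in the fasted library as deposited, so every log2 ratio of fasted over control below is given after taking off that shift of 0.48, and 2-fold on that scale is the size at which a gene is called higher or lower. Of the 11417 genes that averaged 1 RPKM or more, 16.1% were called higher and 16.6% lower. On the same scale the actin was lower at -1.55 and the myosin was within 2-fold at 0.81. Of the 30 fast-muscle genes that reached that mean, 19 were lower and 2 higher.

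IGFBP1 was the member with a higher level in fasted muscle, and the other 7 members were lower. IGFBP1, a binding protein made mainly in liver and known in mammals and fishes to increase in blood during fasting, was 4.26-fold higher by RPKM as deposited. IGFBP5, the main binding protein of muscle cells in mammals, was the lowest by ratio, with a control level 7.80 times the fasted level. The members' median log2 ratio was -1.88, beside 0 for all genes entering, and without centring 1 was higher and 6 were lower, beside 29.7% higher and 8.88% lower of all genes. The order of the family by RPKM turned with it. In control muscle IGFBP5 held place 1 and IGFBP1 place 5, and in fasted muscle IGFBP1 held place 1. In the authors' values per assembled transcript, given below, IGFBP7 gene23125 held place 1 in both libraries.

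**Figure D1:**
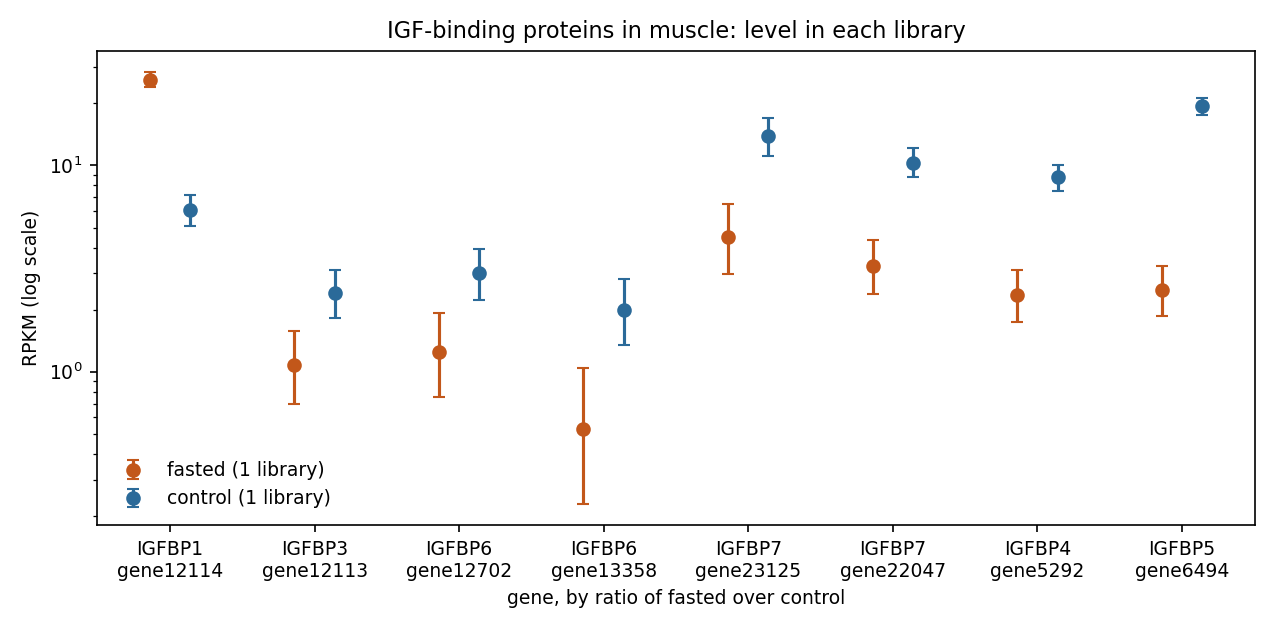
Level of each IGF-binding protein in RPKM on a log axis, fasted library at left and control library at right of each gene, with 95% exact Poisson intervals of the read count. IGFBP1 reaches 26.0 RPKM in the fasted library, while the other 7 genes lie between 0.531 and 4.50 RPKM there and between 1.99 and 19.4 RPKM in the control library.

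IGFBP1 (gene12114, scaffold NW_011322880.1, bases 323045 to 324557, minus strand) stood at 26.0 RPKM in the fasted library and at 6.10 RPKM in the control library. These levels rest on 548 fasted and 133 control reads over a coding length of 792 bases. Its log2 ratio was 1.52, and the counting interval of the read ratio, on the same scale but with no pseudocount, ran from 1.33 to 1.89. It thus stayed above 2-fold over the whole interval. IGFBP1 supplied 548 of the 777 reads of the 8 members in fasted muscle, or 70.5% (95% Wilson interval 67.2 to 73.6), against 133 of 1128 reads in control muscle, or 11.8% (10.04 to 13.8). Read shares ignore gene length, and of the summed RPKM its share was 62.7% in fasted and 9.27% in control muscle. Summed over the other 7 members the level was 15.5 RPKM in the fasted library and 59.7 RPKM in the control library. Together these 7 were lower by more RPKM than IGFBP1 was higher, and the 8 members summed to 41.5 RPKM in fasted muscle and 65.8 RPKM in control muscle as deposited.

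IGFBP3, the principal carrier of circulating IGF in mammals, is the direct neighbour of IGFBP1 on the same scaffold (gene12113, bases 292950 to 315171, plus strand). It stood at 1.07 RPKM in fasted muscle and 2.41 RPKM in control muscle, from 25 and 58 reads. Its log2 ratio of -1.37 was the smallest among the 7 lower members, and as deposited it was within 2-fold at -0.89. Its counting interval of -2.39 to -0.95, with the RPKM shift of 0.48 taken off, reached past the 2-fold line. With the median shift of the read ratios, 0.55, it would not reach that line. The adjoining genes therefore had opposite signs, with read intervals that do not overlap.

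The pairing is a feature of the family. All 4 pairs of adjacent family genes in the annotation were convergent, each with the first gene on the plus strand and the second on the minus strand. In the pair just described the gap is 7.87 kb. The other pair of IGFBP3 and IGFBP1 genes (gene13616 and gene13617) lies on scaffold NW_011322988.1 with a gap of 1.97 kb, and both of its genes were listed at 0 RPKM in both libraries. Muscle thus held transcripts of only 1 of the 2 pairs at this depth. A count of 0 still allows up to 3 reads, which equals 0.113 RPM (reads scaled to library size alone) in the fasted library and 0.109 RPM in the control library.

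**Figure D2:**
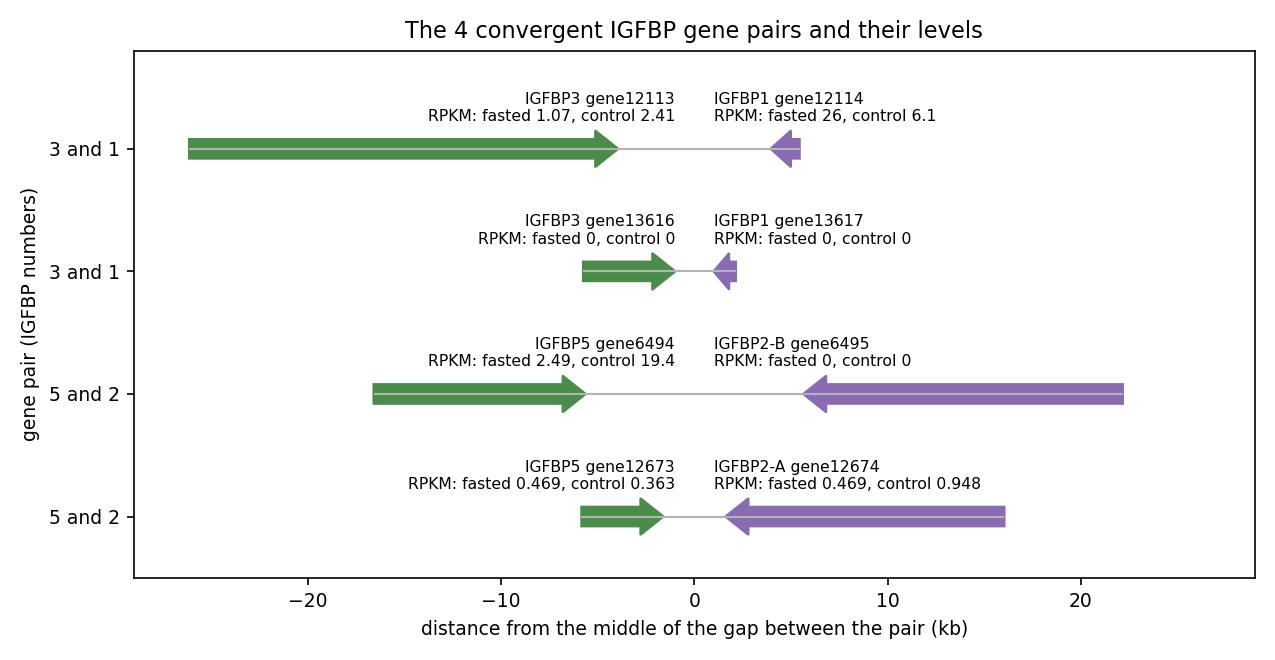
The 4 convergent pairs of IGF-binding protein genes drawn to scale, as distance in kb from the middle of the gap between them, with arrows for the direction of transcription and RPKM printed above each gene. In the first pair IGFBP1 stands at 26.0 RPKM fasted and 6.10 RPKM control beside IGFBP3 at 1.07 and 2.41 RPKM, the second pair is listed at 0, and in the third IGFBP5 is transcribed beside an IGFBP2 gene at 0.

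IGFBP5 (gene6494, scaffold NW_011322585.1, bases 383463 to 394448, plus strand) stood at 2.49 RPKM in fasted muscle and 19.4 RPKM in control muscle, from 53 and 428 reads over 801 coding bases. Its log2 ratio was -3.22, with a counting interval of -3.89 to -3.03. That is beyond the intervals of 5 of the other 6 lower members, and it overlaps that of the IGFBP6 gene with the fewest reads (gene13358). IGFBP5 binds extracellular matrix as well as IGFs, and in mammalian muscle cells its level changes as myoblasts differentiate. By RPKM it was the most abundant member in control muscle, at the 84.5th percentile of entering genes, and at the 25.4th percentile in fasted muscle. Its convergent neighbour, an IGFBP2-B gene (gene6495, gap 11.2 kb), was listed at 0 in both libraries.

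The second IGFBP5 gene (gene12673, scaffold NW_011322917.1, bases 314276 to 318535) has the same coding length of 801 bases and did not reach the mean of 1 RPKM. It stood at 0.469 RPKM in fasted muscle and 0.363 RPKM in control muscle, from 10 and 8 reads. Its counting interval of -1.60 to 1.43 allows a change in either direction, yet it does not overlap that of the abundant copy. The RefSeq gene table of assembly L_crocea_2.0 names the abundant copy igfbp5b and this one igfbp5a. Nearly all IGFBP5 reads of control muscle thus belonged to igfbp5b. Beside igfbp5a lies an IGFBP2-A gene (gene12674, gap 3.19 kb), a binding protein that limits growth in zebrafish embryos, at 0.469 RPKM in fasted muscle and 0.948 RPKM in control muscle (11 and 23 reads). At a mean of 0.708 RPKM it was the nearest family gene outside the threshold, and IGFBP6 gene13358, at 1.26 RPKM, was the nearest inside.

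IGFBP4, which holds IGFs away from the receptor until it is cut by the protease pappalysin-1 in mammals, has a single gene here (gene5292, scaffold NW_011322550.1, bases 274582 to 287422, minus strand). It stood at 2.36 RPKM in fasted muscle and 8.76 RPKM in control muscle, from 49 and 188 reads. The log2 ratio was -2.18 with a counting interval of -2.86 to -1.91, the second lowest of the family.

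IGFBP6, which prefers IGF-II to IGF-I in mammals, was transcribed from both of its genes. The first (gene12702, scaffold NW_011322918.1, bases 151764 to 154426) stood at 1.24 RPKM in fasted muscle and 2.998 RPKM in control muscle, from 20 and 50 reads, and its log2 ratio was -1.49 (counting interval -2.58 to -0.98). That interval reached past the 2-fold line with the RPKM shift of 0.48, but would not with the read shift of 0.55. As deposited the ratio was -1.01, barely beyond that line. The second (gene13358, scaffold NW_011322970.1, bases 35632 to 36947) stood at 0.531 RPKM in fasted muscle and 1.99 RPKM in control muscle, from 8 and 31 reads, and its ratio was -1.75 (-3.72 to -1.23). Both copies were lower in fasted muscle, and at these read numbers their ratios could not be told apart. The loci resemble each other, since each copy lies beside a gene for phosphatidylinositol 5-phosphate 4-kinase type-2 gamma, of which the one next to gene12702 stood at 4.198 RPKM fasted and 2.78 RPKM control while the one next to gene13358 was listed at 0. Reads from closely similar copies may have been divided between them in the authors' counting, so the values of single copies are uncertain.

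Both genes annotated as IGFBP7, a protein of vessel walls and matrix that binds IGFs only weakly, were lower in fasted muscle by ratios that differ by less than counting error. The first (gene23125, scaffold NW_011324749.1, bases 17350 to 18370) stood at 4.50 RPKM in fasted muscle and 13.8 RPKM in control muscle, from 28 and 89 reads, with a log2 ratio of -2.001 (counting interval -2.77 to -1.47). Its gene model is short, at 234 coding bases, so the level per length rests on a fragment. The second (gene22047, scaffold NW_011324239.1, bases 90484 to 91626, 531 coding bases) stood at 3.26 RPKM in fasted muscle and 10.3 RPKM in control muscle, from 46 and 151 reads, with a ratio of -2.01 (-2.66 to -1.66). The authors' splicing event tables name gene22047 igfbpl1, for the related IGFBP-like 1 protein, where the expression table calls it IGFBP7, and only gene23125 is named igfbp7 in both. Without these genes, a choice made after seeing the data, 1 of 6 members was higher and 5 were lower.

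**Figure D3:**
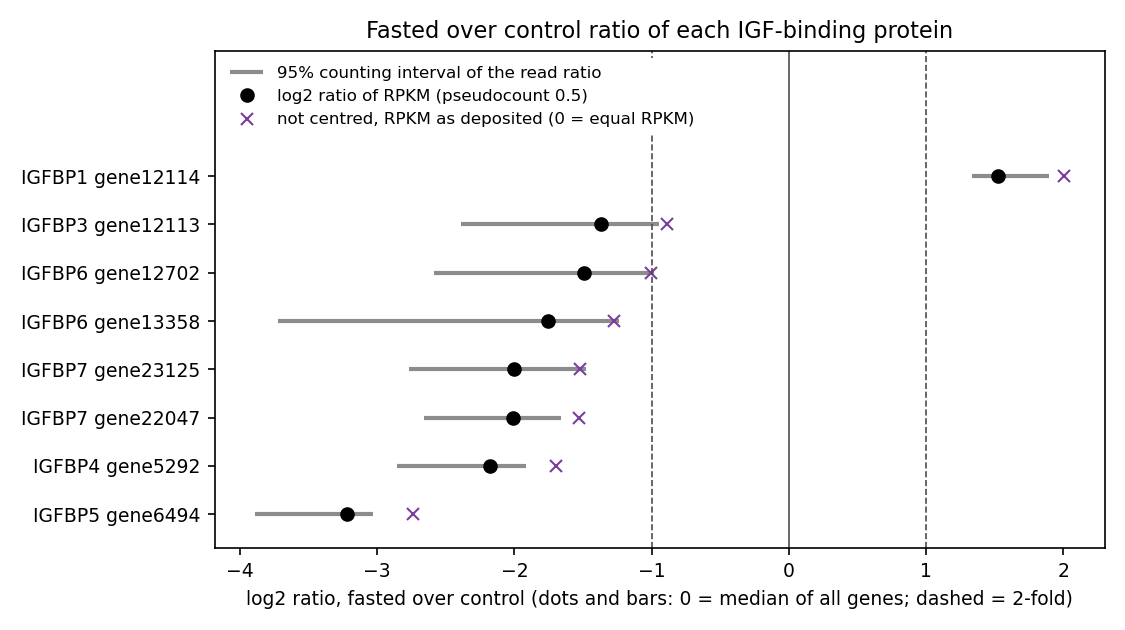
Log2 ratio of fasted over control for each member. Dots are for RPKM plus a pseudocount of 0.5 relative to the median gene, and crosses for the ratio as deposited. Bars are for the 95% counting interval of the read ratio, with the shift of the dots taken off. IGFBP1 lies at 1.52, right of the upper 2-fold line, and the other 7 dots lie between -3.22 and -1.37, left of the lower line; as deposited, IGFBP3 is inside it at -0.89.

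Among the 7 lower members only IGFBP5 stood apart by counting error. Of 21 pairs of these members 5 had read intervals that did not overlap, and each involved IGFBP5. In the order of levels in control muscle, the interval of IGFBP5 lay above that of IGFBP7 gene23125, which overlapped gene22047, which in turn overlapped IGFBP4. IGFBP1 came next and was separate from both neighbours, and IGFBP6 gene12702, IGFBP3 and IGFBP6 gene13358 each overlapped the next. In fasted muscle IGFBP1 was separate from the rest, and every other member overlapped the next in order, down to gene13358. The remaining family names belong to the acid-labile subunit, which joins IGF and IGFBP3 in the large circulating complex. One of its genes was listed at 0 in both libraries (gene19471) and the other stood at 0 RPKM in fasted muscle and 0.0210 RPKM in control muscle (gene3745).

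A further readout came from the authors' event tables, which list assembled first and last exons with an FPKM, a fragment density scaled like RPKM, for each library. The value is that of the assembled transcript, so first and last exons of a member share it, except that in control muscle the last exon of IGFBP5 carries the sum of both first exons. The sign of every member was the same there. Relative to the median of 8212 genes with a mean of at least 1 FPKM, 1 member was higher and 7 were lower by last exon. Of those genes 18.9% were higher and 18.8% lower, but the members were not held to that mean. IGFBP3, at 0.561 FPKM fasted and 1.36 FPKM control, and IGFBP6 gene13358, at 0.197 and 1.04 FPKM, fell short of it. IGFBP6 gene12702, at 0.577 and 1.93 FPKM, passed it only through the control library. These tables come from the same libraries and are no replicate. The last exon of IGFBP1 stood at 14.3 FPKM in fasted muscle and 1.42 FPKM in control muscle, a log2 ratio of 2.38 that exceeds the 1.52 from RPKM. For IGFBP5 it stood at 1.596 FPKM in fasted muscle and 23.7 FPKM in control muscle, a ratio of -4.10. The other 6 had last-exon ratios between -2.14 and -1.21. Of all members IGFBP7 gene23125, with its short gene model, had the highest value in both libraries, at 30.5 FPKM fasted and 47.9 FPKM control. The change of first place by RPKM was thus not seen in this readout. No skipped exon, retained intron or alternative exon end was listed for any member.

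The assembled exons of IGFBP5 and IGFBP1 also differed in extent. In control muscle IGFBP5 had 2 first exons, an upstream start at 8.13 FPKM and a start inside the gene at bases 389220 to 389249 at 15.6 FPKM, and in fasted muscle only the upstream start was listed, at 1.596 FPKM. Its assembled last exon ran 720 bases past the annotated end in fasted muscle and 3060 bases past it in control muscle. That of IGFBP1 ran 798 bases past the annotated end in fasted muscle and 0 bases in control muscle, and that of IGFBP4 ran 2131 bases past it in fasted muscle and 2164 bases in control muscle. Both IGFBP6 genes ran past their annotated ends in control muscle, by 1224 bases (gene12702) and 753 bases (gene13358), and by 0 bases in fasted muscle. The longer ends of IGFBP5, IGFBP1 and IGFBP6, and the inner first exon of IGFBP5, were in the library where the gene had more reads. The part of read number in this was not tested. In the gap between IGFBP3 and IGFBP1 both libraries had an assembled exon outside the annotation, at bases 318977 to 319541 in the fasted library and 319086 to 319737 in the control library, with no strand given. Since it lies over 3 kb from either gene's annotated end, it belongs to no annotated exon of either.

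In the authors' deposited table all 8 members were called changed, 1 higher and 7 lower, beside 44.9% of its 16883 genes called in either direction, 30.3% higher and 14.5% lower. Unlike the members, those genes were not held to a mean of 1 RPKM, so the shares are not at a like level. The sources used here do not say how that table's p-values were made from single libraries. Among the members its adjusted p was below the p for IGFBP7 gene23125, IGFBP3 and both IGFBP6 genes, as for 12136 of all genes listed. The calls are therefore given only as deposited.

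The hormones and receptors that the binding proteins serve were read beside the same shares of all genes, 16.1% higher and 16.6% lower. Of 6 genes for IGFs and insulin, 2 reached a mean of 1 RPKM. IGF-II (gene5381) stood at 3.89 RPKM in fasted muscle and 2.19 RPKM in control muscle, a log2 ratio of 0.22 with a counting interval of -0.24 to 0.96. A gene annotated as insulin (gene16004) stood at 4.75 and 9.52 RPKM (ratio -1.42), and was within 2-fold at -0.93 as deposited. IGF-I had few reads, 3 in the fasted library and 14 in the control library in its larger gene (gene10782, 0.201 and 0.907 RPKM), with an interval of -5.10 to -0.81 that bounds the ratio poorly. The other IGF-I gene (gene19175) stood at 0.0633 RPKM in fasted muscle and 0 in control muscle, and both other insulin genes were listed at 0.

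Of 8 receptor and acid-labile subunit genes, 4 entered and 0 were called in either direction. As deposited 1 was higher and 0 were lower, beside 29.7% and 8.88% of all genes. The IGF-1 receptor gene with the most reads (gene6499) stood at 1.59 RPKM in fasted muscle and 0.909 RPKM in control muscle (ratio 0.08). That gene entered only through the fasted library. The insulin receptor genes had ratios of 0.14 (gene5153) and -0.42 (gene10699). The mannose-6-phosphate receptor, which in mammals takes up and degrades IGF-II, stood at 6.02 and 1.89 RPKM, a ratio of 0.97 just under the 2-fold line. Its read interval of 1.03 to 1.36, with no pseudocount and the RPKM shift of 0.48 taken off, lay above that line. With the median shift of the read ratios, 0.55, it would span the line. The other IGF-1 receptor genes had ratios of -0.22 (gene19115) and -0.66 (gene5616) at means under 1 RPKM.

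Enzymes and inhibitors that act on the binding proteins went both ways: of 9 genes 5 entered, 1 was higher and 2 were lower. The shares of all genes were 16.1% higher and 16.6% lower. As deposited 2 were higher and 2 were lower, beside 29.7% and 8.88% of all genes. The higher gene8850 and the lower gene15331 passed the mean of 1 RPKM only through the library where each was high, so their calls are tied to that filter. Stanniocalcin-2, an inhibitor of pappalysin-1 in mammals, stood at 5.46 RPKM in fasted muscle and 0.464 RPKM in control muscle in the gene that was higher (gene8850, 125 and 11 reads, ratio 2.14). A second stanniocalcin-2 gene stood at 4.19 and 2.10 RPKM and was within 2-fold (gene21266, 152 and 79 reads, ratio 0.37). HtrA1, a secreted protease that cuts IGF-binding proteins in mammals, stood at 1.58 and 5.41 RPKM in the gene HTRA1B (ratio -1.99), and the other lower gene, a stanniocalcin named after its value was seen, stood at 0.683 and 3.96 RPKM (gene15331, ratio -2.40). Pappalysin-1 itself, also named after its value was seen, had a ratio of 0.69 at 1.79 RPKM fasted and 0.518 RPKM control (gene270, 244 and 73 reads). Its read interval of 0.92 to 1.71, with no pseudocount, spanned the 2-fold line, and as deposited its ratio was 1.17. It entered only through the fasted library.

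Other secreted proteins that carry an IGFBP domain were described beside the family. Of 20 genes 13 entered, 0 were higher and 6 lower, beside 16.1% higher and 16.6% lower of all genes. Their median log2 ratio was -0.81. The HtrA1 genes are in this list and in the preceding one, and HTRA1B is counted among the lower genes of both. Connective tissue growth factor, a matrix signal of the CCN family, stood at 13.8 RPKM in fasted muscle and 54.6 RPKM in control muscle (gene11800, -2.43). The 5 genes annotated as CYR61, another CCN protein, spread from -2.47 (gene2845) to 0.56 (gene11016). As deposited 1 of the 13 was higher and 4 were lower, beside 29.7% and 8.88% of all genes.

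Inside the cell, of 12 receptor substrates and adaptors entering 1 was higher, 3 were lower and 8 were within 2-fold. The shares of all genes were 16.1% higher and 16.6% lower. As deposited 2 were higher and 1 was lower, beside 29.7% and 8.88% of all genes. SHC-transforming protein 1, an adaptor of the receptor, stood at 61.6 RPKM in fasted muscle and 15.3 RPKM in control muscle (gene3264, 1.49), and insulin receptor substrate 2 had genes at 0.47 (gene14141) and -1.05 (gene12794). Growth factor receptor-bound protein 14, an adaptor that binds the insulin receptor, had the lowest ratio of the list at 1.15 and 4.74 RPKM (gene8822, -2.14). Of 19 genes for PI3K, Akt and FoxO 3 were higher, 5 lower and 11 within 2-fold, with a median of -0.62. As deposited 3 were higher and 3 lower, and both counts stand beside the same shares of all genes. Gene copies of the same protein differed. The regulatory PI3K subunit alpha stood at 150.8 RPKM in fasted muscle and 36.4 RPKM in control muscle in its abundant gene (gene15128, 1.55), and at 2.23 and 2.58 RPKM in the other (gene19129, -0.65). Akt2, annotated as RAC-beta kinase, likewise stood at 55.5 and 13.0 RPKM (gene19408, 1.57) and at 3.06 and 3.56 RPKM (gene2591, -0.67). The lower genes included regulatory subunit gamma at 0.490 and 4.11 RPKM (gene18418, -2.70) and regulatory subunit beta at 1.46 and 3.76 RPKM (gene12753, -1.61). Another was a FoxO1 gene at 0.485 and 1.67 RPKM (gene20942, -1.62). Of these, gene18418 and gene20942 passed the mean of 1 RPKM only through the control library. FoxO1 and FoxO3 genes at 5 RPKM or more had ratios of -0.37 (gene9775) and 0.10 (gene7304).

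Growth hormone and glucocorticoids set the level of IGFs and of several binding proteins in vertebrates. Of 17 genes of that axis entering, 4 were higher and 3 lower, beside 16.1% higher and 16.6% lower of all genes. As deposited 4 were higher and 2 lower, beside 29.7% and 8.88% of all genes. The highest was a growth hormone receptor gene at 116.9 RPKM in fasted muscle and 9.71 RPKM in control muscle (gene12825, 3.04, 5494 and 472 reads), whereas the growth hormone receptor gene5545 stood at 8.15 and 13.3 RPKM (-1.16) and gene21047 at 2.68 and 2.71 RPKM (-0.49). Of the genes for SOCS3, a feedback inhibitor of growth hormone signalling, gene17898 stood at 28.6 RPKM in fasted muscle and 5.82 RPKM in control muscle (1.72). The more abundant gene9634 was within 2-fold at 52.1 and 26.5 RPKM (0.48). The related SOCS2, named after its value was seen, stood at 4.59 and 0.420 RPKM (gene22412, 74 and 7 reads, 1.99). SOCS2 entered only through the fasted library, and the kinase JAK2 gene834, at 0.535 and 2.28 RPKM (-1.91), only through the control library. The glucocorticoid receptor genes had ratios of -0.20 (gene2164) and -1.66 (gene2890). The IGF2 mRNA-binding proteins, which share only part of the name, had 3 genes, of which 0 reached a mean of 1 RPKM.

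**Figure D4:**
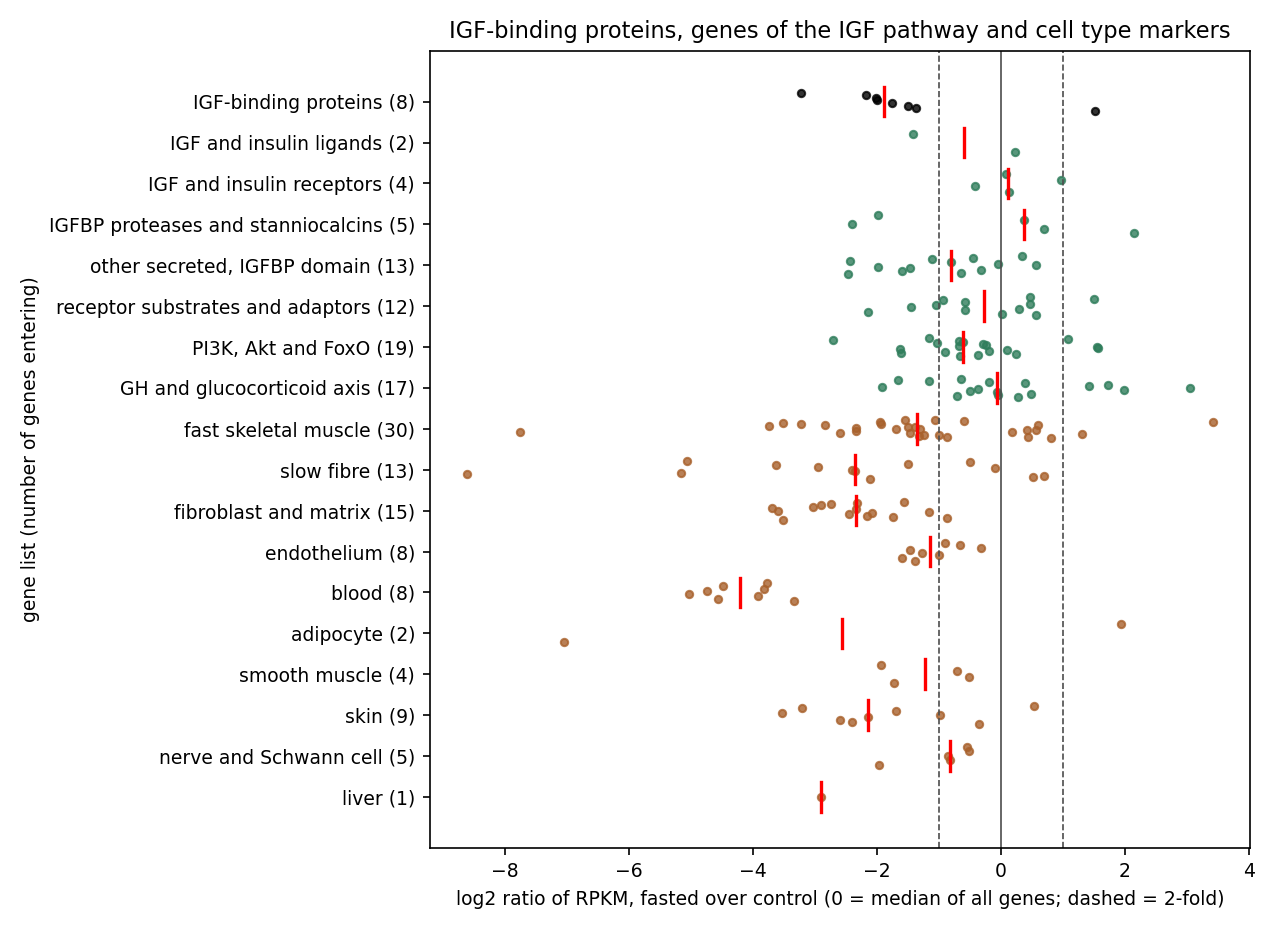
Log2 ratio of fasted over control RPKM, relative to the median gene, for each entering gene of the family (black), of the IGF pathway lists (green) and of the cell type marker lists (brown), with a red bar at each median. The family's median is -1.88 with 1 gene to the right of 0, the fibroblast and matrix list's is -2.33 with all 15 genes left of 0, and that of the receptors is 0.11.

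Several binding proteins are made by cells other than muscle fibres, and markers of such cells were counted beside them, where 16.6% of all genes were lower. Of 15 fibroblast and matrix genes entering 14 were lower and 0 higher, and the list of 19 summed to 208 RPKM in fasted muscle and 973 RPKM in control muscle. Endothelial genes had a median of -1.14, with 5 of 8 entering lower, 0 at 0 in both libraries and sums of 78.6 and 119.5 RPKM, though only 1 of them was lower as deposited. Smooth muscle genes had 2 of 4 lower (63.2 and 101.2 RPKM), keratins 6 of 9 (434 and 1885 RPKM), and hemoglobins 8 of 8 (44.7 and 568 RPKM). Nerve and Schwann cell genes had 1 of 5 lower, a share near that of all genes (287 and 369.5 RPKM). Slow-fibre genes had 9 of 13 lower and 0 higher (346 and 1908 RPKM), and fast-muscle genes 19 of 30 lower and 2 higher (246640 and 457660 RPKM). The lower keratins gene14975 and gene195, hemoglobin gene3729, and slow-fibre gene2739 and gene23741 passed the mean of 1 RPKM only through the control library. Their calls are tied to that filter, and so in part are the shares of lower genes in their lists. Slow-fibre gene3449 passed only through the fasted library and was within 2-fold. Of these lists the ones with genes at 0 in both libraries were fibroblast and matrix (2), keratins (6), nerve (1), hemoglobins (1), slow fibre (2) and fast muscle (6). In bulk tissue, fewer cells of a type and less RNA per cell cannot be told apart, and the part of these cells in the lower binding proteins was not tested.

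IGFBP1 had the opposite sign to most of these lists. Genes of liver, the organ best known for IGFBP1, summed over 8 genes to 0.775 RPKM in fasted muscle and 4.70 RPKM in control muscle. IGFBP1 itself stood at 26.0 and 6.10 RPKM, and any part of liver RNA in that level was not tested. The 1 liver gene that entered, a serotransferrin gene, stood at 0.0847 and 2.62 RPKM and passed the mean of 1 RPKM only through the control library. Fibrinogen alpha genes, which make a clotting protein of liver, stood at 0.235 and 0.301 RPKM in fasted muscle and at 0.0350 and 0 RPKM in control muscle. These rest on few reads, 13 and 5 in the fasted library and 2 and 0 in the control library. Fibrinogen beta was listed at 0 in both, and apolipoprotein A-I stood at 0 and 0.126 RPKM. Of the 5 genes listed by name as adipocyte markers, 2 were at 0 in both libraries, adiponectin among them, and the others gave no common value. Whether these names mark adipocytes in this fish was not tested. The lipid droplet protein CIDE-3 (gene17055) stood at 0.203 RPKM in fasted muscle and 66.1 RPKM in control muscle. Leptin stood at 2.17 and 0 RPKM, from 28 and 0 reads, and adipocyte fatty acid-binding protein at 0 and 0.0904 RPKM. CIDE-3 passed the mean of 1 RPKM only through the control library, and leptin only through the fasted library.

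The genes most like the 2 extremes of the family were sought by the distance between log2 levels in both libraries, which with 2 libraries is a loose measure. Nearest to IGFBP1 were WD repeat-containing protein 44 at 26.2 RPKM in fasted muscle and 6.08 RPKM in control muscle, the mitochondrial ribosomal protein S29 at 26.5 and 6.12 RPKM, and the iron-sulfur protein NUBPL at 26.5 and 6.13 RPKM. Nearest to IGFBP5 were the transcription factor SOX-4 at 2.32 and 18.8 RPKM, Band 4.1-like protein 2 at 2.45 and 17.8 RPKM, and the transcription factor NFATc2 at 2.17 and 17.5 RPKM. The distances were at most 0.026 for the first 3 and at most 0.22 for the others, so levels like that of IGFBP1 were met more closely than levels like that of IGFBP5.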

How the data were processed

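Per the labels' protocols, Trizol was used for the RNA and a TruSeq kit for the libraries, and the treatment label gave the groups. HTSeq, SAMtools 0.1.19, TopHat and TopHat2 2.0.12 appear in the submitters' processing notes without a role. The sources used here give neither build nor strand setting, so reads of overlapping genes on opposite strands cannot be told apart. The authors deposited RPKM per gene. Their comparison table, deposited with RPM, fold change, log2 fold change and p-value, was used for reads and calls. In it the adjusted p was below the p for 12136 genes. Splicing events were deposited with FPKM, and regions outside the annotation with start coordinates.

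Reads were recovered as whole multiples of 1 step of RPM. Within 0.1 read, 100% of the nonzero values were whole. Dividing RPM by RPKM gave gene lengths, of which 92.3% held whole codons, so they are called coding lengths and reads in untranslated regions may be missing from the counts. Ratios are log2 of RPKM plus 0.5, which understates changes of low genes, and were centred because the median lay over 0.1 from 0. Read ratios and their intervals had the same shift of 0.48 taken off, though their own median shift was 0.55. A gene under 1 RPKM in 1 library entered only through the other, so its call is tied to the filter. A count test needs replicates, so none was run and no p-value was computed. Intervals of read ratios (95%, Clopper-Pearson, conditional on the sum) and of levels (exact Poisson) cover counting error only, since each group has 1 library. PCR copies of a molecule count as separate reads here, which can make these intervals too narrow. The steps were tested on simulated counts.

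The members and lists were chosen with earlier results of these data known. Named were all members, list genes with at least 5 RPKM in the higher library (up to 3 at each end), every ligand and receptor, direct neighbours, and the 3 genes nearest to the extreme members. Only part of the list genes so chosen is written out, and other list genes were added after their values were seen. These were second copies, the lower genes of the PI3K and adaptor lists, pappalysin-1, SOCS2, JAK2, and liver and adipocyte genes. Names in RefSeq's table (L_crocea_2.0, no coordinates used) were found for 5 of 8 members. Python 3.11.15, pandas 2.3.3 and scipy 1.17.1 were used. Alternatives covered the pseudocount, the filter, the scaling, the size threshold, reads and the members' threshold. Ontology counts and repeated tables were not used here.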

Additional observations from a re-analysis of the deposited data

How the results depend on the processing

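No member changed sign in any of the alternatives run, and 1 member was higher in each of them except at a threshold of 3-fold, where 0 were higher and 5 lower. Members lower numbered 4 of 5 when genes needed a mean of 5 RPKM, also when only members did, but these 4 passed that mean only through the control library and so say nothing of stability. With RPKM as deposited 6 of 8 were lower. The median ratio of the members was -2.16 and -1.62 with pseudocounts of 0.1 and 1, -2.27 with the mean of 5 RPKM for all genes and -2.01 with it for members only, -1.57 with no filter, -1.39 as deposited, -2.20 from reads, -1.75 with members from 0.5 RPKM, and -1.62 without gene22047 and gene23125. Of all genes, higher and lower numbered 1055 and 1156 with the mean of 5 RPKM, 3389 and 1014 as deposited, 3144 and 3160 at 1.5-fold and 845 and 892 at 3-fold, and 2936 were higher with no filter. For single members, 52 of 61 values under the alternatives that can move a ratio stayed within the counting interval. Most of the values outside it came from RPKM as deposited, for IGFBP1, IGFBP3, IGFBP4, IGFBP5 and IGFBP7 gene22047. These shifts follow from the construction of each alternative. At most 53 fasted reads for each of the 7 lower members limit the precision of their ratios. No library could be left out. No paired analysis was possible because each group has 1 library.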

Other observations

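The genes beside the paired loci add to the picture of the duplicated regions. Both pairs of IGFBP3 and IGFBP1 lie between a tensin-3 gene and an adenylate cyclase type 1 gene, and both pairs of IGFBP5 and IGFBP2 lie after a tensin-1 gene. The tensins, which link actin to integrins, differed between copies. The tensin-1 gene before the quiet IGFBP5 copy, across a gap of 30431 bases, stood at 40.3 RPKM in fasted muscle and 8.77 RPKM in control muscle (gene12672, log2 ratio 1.65). The tensin-1 gene before the abundant copy, across a gap of 239836 bases, stood at 6.65 and 11.1 RPKM (gene6493, -1.18). The tensin-3 gene beside the transcribed pair stood at 2.01 and 3.32 RPKM (gene12112, -1.09) and that beside the other pair at 0.247 and 0.0939 RPKM (gene13615). Both adenylate cyclase genes were at or near 0, at 0.0116 and 0.0109 RPKM in fasted muscle and 0 in control muscle. IGFBP4 lies between SMARCE1, a chromatin remodelling subunit, at 10.98 RPKM in fasted muscle and 6.45 RPKM in control muscle, and the transcription factor Aiolos at 1.28 and 1.69 RPKM, both within 2-fold. RPB2, a subunit of RNA polymerase II beside IGFBP7 gene23125, and COX18, a mitochondrial insertion factor beside gene22047, had ratios of 0.14 and 0.83.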
